A study of Mus musculus with 8 samples.

Results

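CTCF binding was examined at 9 genes that write, erase or read DNA methylation, in cultured cortical neurons of the mouse that were left unstimulated or stimulated with NMDA. The genes were chosen by name: the writers Dnmt1, Dnmt3a and Dnmt3b, the erasers Tet1, Tet2 and Tet3, and the readers Mbd1, Mbd2 and Mbd3. These are 9 of 21887 protein-coding genes in the RefSeq table used here. Each gene was taken with 20 kb on either side, and a CTCF region belonged to a gene when its summit, the position of highest enrichment, lay in that window. This gave 35 of the 33815 control regions and 32 of the 36186 NMDA regions. The neurons were wild type, were prepared on embryonic day 16 from the Swiss-Webster stock and had spent 13 days in vitro. The control cultures were unstimulated. The stimulated cultures were exposed to NMDA, a glutamate receptor agonist, at 50 µM for 10 minutes, and recovered for 50 minutes after washout. Chromatin immunoprecipitation and sequencing (ChIP-seq) with an antibody to CTCF was done on 2 replicates per condition, called biological in the labels. The growth protocol shared by all samples also names etoposide, a topoisomerase inhibitor, which no label assigns to a sample. A label of neurons could not be checked against marker genes, because region lists carry no expression values.

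The authors deposited 1 list of reproducible regions per condition, each over both replicates. A condition therefore enters as a single list, no test across samples was possible, and every count below describes these 2 lists. A region missing from a list did not pass the authors' reproducibility step there, which is not a measurement of zero binding. The number of reads behind the lists is unknown. The signal of a region is the authors' −log10 p, which grows with sequencing depth, so signals were turned into percentiles within their own list: 100 is the strongest region and 0 the weakest. A region overlapping a region of the other list by at least 1 bp is called shared, and any other is control-only or NMDA-only. Positions are those of mm10, counted from 1.

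In DNA methylation, a methyl group is placed on cytosine, mostly in CpG dinucleotides. Dnmt1 copies the pattern to the new strand after replication, while Dnmt3a and Dnmt3b methylate sites afresh. Dnmt3a is the main de novo enzyme of maturing neurons, where it also methylates cytosines outside CpG. The Tet enzymes oxidise methylcytosine, which starts its removal, and oxidised methylcytosine is abundant in brain. Proteins with a methyl-CpG binding domain read the mark. Mbd1 and Mbd2 bind methylated CpG, Mbd2 and Mbd3 belong to alternative forms of the NuRD histone deacetylase and remodelling complex, and mammalian Mbd3 has little preference for methylated DNA. CTCF, a zinc finger protein that anchors chromatin loops together with cohesin, is itself sensitive to this mark at some of its sites, since methylation of a CpG within the motif can hinder its binding.

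Sequence before an annotated start was taken from the RefSeq promoter table (GRCm38.p6, the assembly of mm10), which matched 7 of the 9 genes with 11 promoter windows. Mbd1 and Mbd2 had no entry. The stretches below are those before the gene span at a pair of genes whose start lay in or beside a CTCF region, Dnmt3b with a shared region and Mbd3 with a control-only region. Capitals mark CpG, the dinucleotide on which these proteins act. The Dnmt3b stretch (chr2:153649199-153649410, plus strand) held 16 CpG in 212 bases, and the Mbd3 stretch (chr10:80399532-80399781, minus strand) held 14 in 250.
Dnmt3b: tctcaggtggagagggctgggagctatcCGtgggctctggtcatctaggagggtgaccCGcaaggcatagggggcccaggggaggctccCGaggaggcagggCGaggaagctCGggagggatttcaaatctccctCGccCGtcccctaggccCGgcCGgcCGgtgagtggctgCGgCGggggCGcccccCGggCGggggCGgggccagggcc
Mbd3: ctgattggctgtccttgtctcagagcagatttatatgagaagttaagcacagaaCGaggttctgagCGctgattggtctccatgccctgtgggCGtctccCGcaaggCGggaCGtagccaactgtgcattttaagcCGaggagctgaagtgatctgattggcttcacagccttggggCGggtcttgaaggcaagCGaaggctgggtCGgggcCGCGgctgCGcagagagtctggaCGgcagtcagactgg

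Shorter stretches of 30 bases are given for 4 starts. At Dnmt1 the stretch lies around the summits of a shared region, and capitals mark the bases from the control to the NMDA summit, 134 to 132 bases before the annotated start at 20952979 (chr9:20953097-20953126, minus strand). At Dnmt3b (chr2:153649419-153649448, plus strand), Tet2 (chr3:133544391-133544420, minus strand) and Tet3 (chr6:83441679-83441708, minus strand) the stretch ends at the base before the annotated start. Capitals there mark GCCCCCT, which is the motif AGGGGGC, a part of the CTCF core consensus, read on the opposite strand. The Tet2 stretch lies outside the only Tet2 region, which spans 133544596 to 133545463. The Dnmt3b summits lay 274 and 271 bp after the start, and the Tet3 summit, of a control-only region, 85 bp after it. Whether CTCF was bound at these letters was not tested.
Dnmt1: gggcttggagcggCTGgatgcgggtgctgg
Dnmt3b: gctacaagggcagcggcgccGCCCCCTccc
Tet2: gctcgcatgccagtcacgtccGCCCCCTcg
Tet3: ttggctggcgcgcgcgccGCCCCCTtgcac

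CTCF regions lay around all 9 genes in the NMDA list and around 8 of 9 in the control list, where Tet2 had none. Among protein-coding genes as a whole, the same window held an NMDA region for 74.6% and a control region for 73.8%. The windows, 906 kb in all, held 3.86 control and 3.53 NMDA regions per 100 kb, beside 2.43 and 2.60 over the windows of all protein-coding genes. Dnmt3a had the most, with 10 control and 9 NMDA regions, and 99.2% of protein-coding genes had fewer in the control list. Its window is the longest of the 9, at 153 kb. Mbd3, the shortest gene at 6.99 kb, had 7 control and 4 NMDA regions. Tet2, with a window of 121 kb, had 0 and 1, and its NMDA region was weak, at percentile 2.25. Inside the gene spans lay 16 of the 35 control and 17 of the 32 NMDA regions. The map of regions around the genes shows these differences, with regions of high percentile in the flanks of Dnmt1, Dnmt3a, Tet3 and Mbd3 and of low percentile throughout Tet1.

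**Figure D1:**
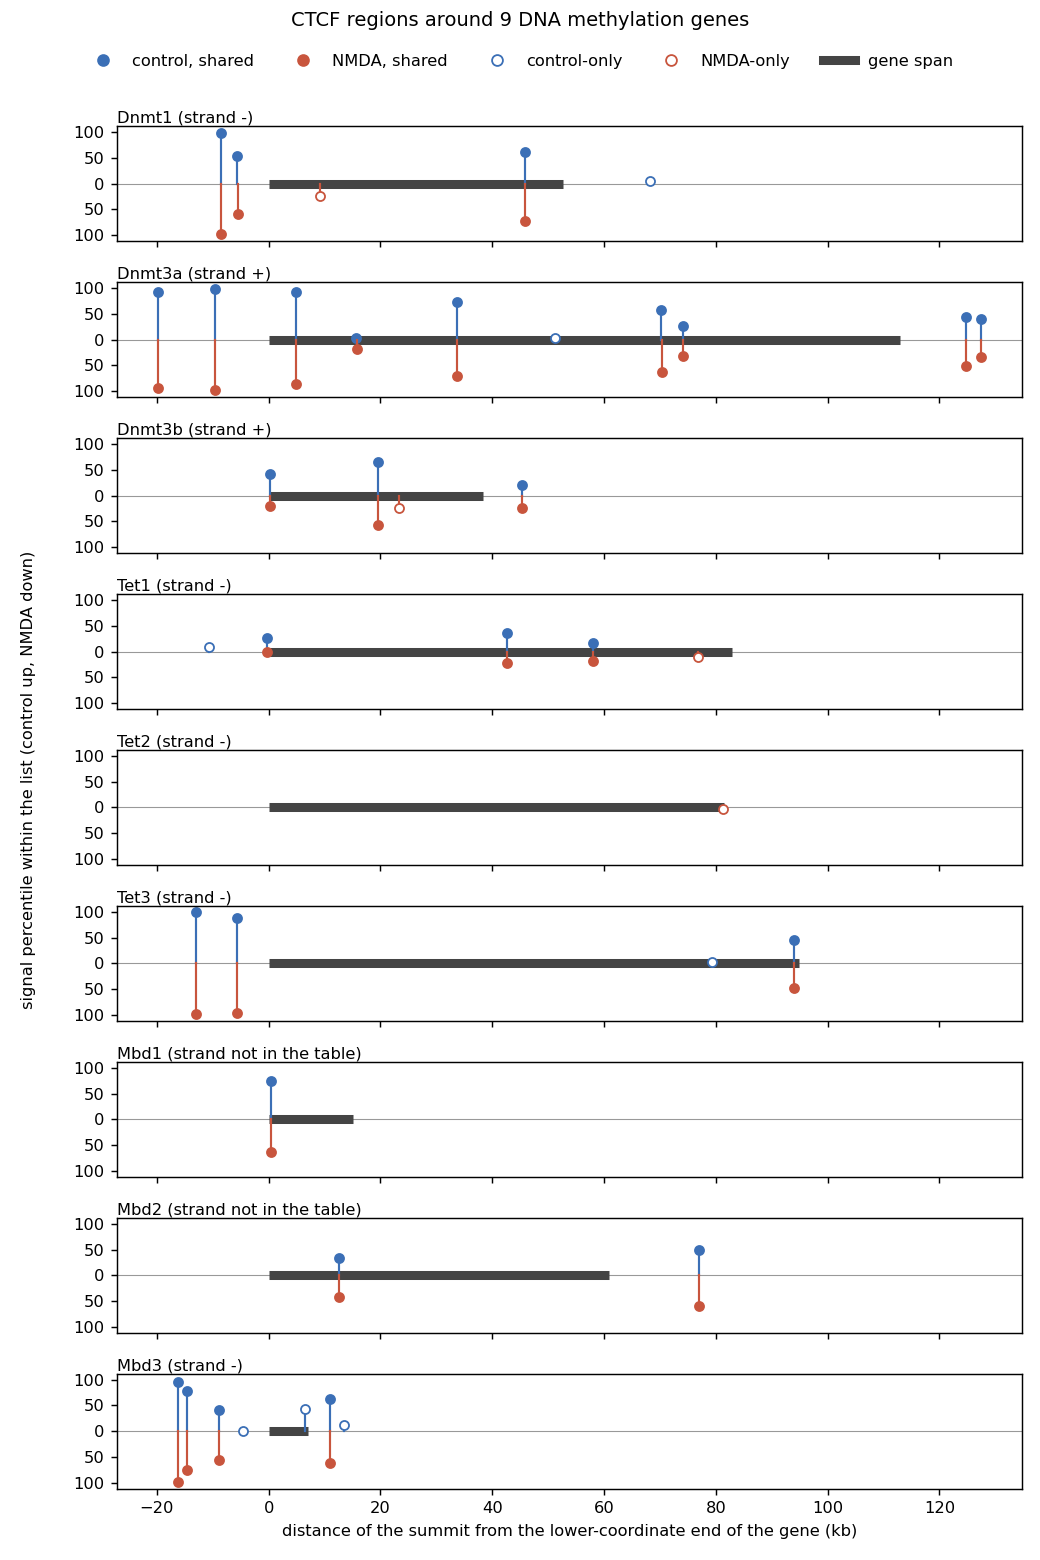
Summits of CTCF regions around the 9 genes, by distance in kb from the end of the gene with the lower coordinate; bars rise to the signal percentile in the control list and descend to that in the NMDA list. Filled points are shared and open points list-only regions; Dnmt3a has 10 control and 9 NMDA regions, Mbd3 has 7 and 4, and Tet2 has 0 and 1.

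Most regions were found in both conditions, as 28 pairs of 1 control and 1 NMDA region. Of the control regions 28 of 35 were shared, which is 80.0% (95% Wilson interval 64.1 to 89.96), and 7 were control-only. Over all control regions, 9.22% were control-only. Of the NMDA regions 28 of 32 were shared, 87.5% (71.9 to 95.03), and 4 were NMDA-only, beside 15.5% of all NMDA regions. The intervals cover counting error only, and regions of 1 gene are neighbours rather than independent draws. Mbd3 alone held 3 of the 7 control-only regions. Without its window, 24 of 28 control regions were shared, or 85.7%. At a score of 830 or more, 26 of 27 control regions were shared, or 96.3%, since 6 of the 7 control-only regions are below that score. The share over all control regions at that score is not given here, and the 9.22% above has no such limit. By gene, 5 of the 9 had a control-only region in their window, beside 16.3% of protein-coding genes, and 4 had an NMDA-only region, beside 26.7%. Per 100 kb of window there were 0.773 control-only and 0.441 NMDA-only regions, beside 0.213 and 0.393 over the windows of all protein-coding genes.

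Dnmt1, the maintenance methyltransferase (chromosome 9, 20907206 to 20959888, minus strand), had a strong shared region beyond its 3′ end. This region had its summit at 20898701 in the control list and 20898715 in the NMDA list, at percentiles 99.2 and 98.3, with signals of 1347 and 637. It lay within 1 kb of an end of the neighbouring gene Eif3g, which encodes a translation initiation factor subunit. A second shared region lay closer to Dnmt1 (summits 20901595 and 20901642, percentiles 54.5 and 59.9). Inside the gene, a shared region covered the annotated start at 20952979, with summits 134 and 132 bp before it, at the bases printed above. Its percentile was 61.2 in the control and 71.8 in the NMDA list, and its width 1515 and 814 bp. The NMDA replicates ranked it differently, at percentile 83.0 by the first column and 59.3 by the second, so its place relative to the control list was higher in the first column and lower in the second. The outermost annotated start of Dnmt1, at 20959888, had no region over its promoter window in either list. That window held 2 CpG, fewer than any other member window, against 12 at the start at 20952979 and 33 at a further start at 20952623. The gene body also held an NMDA-only region (20915696 to 20916886, signal 40.1, percentile 24.1, with 13.2 and 27.0 in the replicate columns). A control-only region lay upstream within S1pr2, which encodes a sphingosine-1-phosphate receptor (20975149 to 20976099, signal 42.5, percentile 4.67).

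Dnmt3a, the de novo methyltransferase most used by neurons (chromosome 12, 3801559 to 3914443, plus strand), carried 9 shared pairs and 1 control-only region. Upstream, shared regions lay at 3781731 and 3781723, within Dtnb, the dystrobrevin beta gene (percentiles 92.5 and 94.5), and at 3792030 and 3792007 (97.6 and 97.2). Another, inside the span, had its summits 533 and 474 bp before the annotated start at 3806980. This region was at percentile 93.0 in the control and 86.5 in the NMDA list. Its width was 1710 and 1017 bp, and its replicate signals were 75.8 and 212 (percentiles 75.9 and 91.9). These 3 were above percentile 90 in the control list, and the 2 upstream of the gene were so in the NMDA list as well. Further into the gene, shared regions lay at 3835213 and 3835195 (percentiles 72.4 and 69.9) and at 3871795 and 3871830 (58.5 and 63.0). A neighbour of the latter at 3875660 and 3875664 was at 25.7 and 31.6. The weakest pair lay at 3817248 and 3817275, at percentiles 3.37 and 18.7. In the NMDA list its replicate columns gave 22.5 and 11.8, or percentiles 37.8 and 5.56. Beyond the 3′ end lay a pair at 3926297 and 3926277 (43.7 and 50.6) and one at 3929034 and 3929033 (39.6 and 34.2). The control-only region, in the middle of the gene (3852334 to 3853195), was weak, with a signal of 39.3 and a percentile of 2.69. The inner annotated start, at 3891744, had no region over its window.

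Dnmt3b, the de novo methyltransferase of early development (chromosome 2, 153649411 to 153687730, plus strand), had a shared region over its start. The summits lay 274 and 271 bp after the annotated start at 153649449, and the region covered the printed stretches whole in both lists. It was at percentile 42.0 in the control list and 20.5 in the NMDA list, a difference of −21.4 points, with control and NMDA signals of 133 and 36.2. Both NMDA replicate columns placed it below the control percentile, by −14.2 points in the first and −22.7 in the second. Of the 3363 pairs genome-wide in the same decile of control signal, 3.18% had a lower difference. Control-only regions, 60 of the 3382 control regions in that decile, have no difference and are not among these pairs. A second shared region lay inside the gene (153668912 and 153668895, percentiles 65.5 and 56.4). The replicates were far apart there, with 17.97 in the first column and 93.3 in the second, percentiles 29.8 and 65.5. An NMDA-only region lay 2019 bp from the nearest control region (153672261 to 153672986, signal 39.1, percentile 23.3). The third pair, beyond the 3′ end (153694688 and 153694670), was at percentiles 20.7 and 24.0.

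Tet1, a dioxygenase that oxidises methylcytosine (chromosome 10, 62804570 to 62887469, minus strand), had weak regions in both lists, with no percentile above 35.1. The shared region beside its 3′ end (62804297 and 62804280, 273 and 290 bp outside the span) had the largest difference of the 28 pairs. It was at percentile 25.4 in the control list and 0.649 in the NMDA list, a difference of −24.7 points, with signals of 81.8 and 19.04. The replicate columns gave 7.75 and 11.3, both near the bottom of the list, and differences of −25.1 and −21.1 points. Of the 2978 pairs in its decile of control signal, 0.201% had a lower difference. Control-only regions, 432 of the 3381 control regions in that decile, have no difference and are not among these pairs. The Tet1 region was near the edge of what was kept in the NMDA list, with a score of 540, the lowest in the list. At that edge few pairs could have a lower difference. When the NMDA list was limited to as many regions as the control list, the NMDA region dropped out and the control region counted as control-only. Inside the gene, the pair at 62847123 and 62847155 was at percentiles 35.1 and 22.8, and lower than the control in both replicate columns. The pair at 62862642 and 62862634 was at 16.5 and 19.3. An NMDA-only region lay 5923 bp after the annotated start, within the span of the noncoding RNA gene Gm51805 (62881149 to 62881677, signal 27.3, percentile 10.9). A control-only region lay beyond the 3′ end (62793646 to 62794518, signal 49.2, percentile 8.85). No region of either list overlapped the promoter window of Tet1.

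Tet2, a second methylcytosine dioxygenase (chromosome 3, 133463677 to 133545136, minus strand), had the fewest CTCF regions of the 9. The control list had none in its window, as for 26.2% of protein-coding genes. The NMDA list had 1, at the 5′ end of the span (133544596 to 133545463), with its summit 559 bp before the annotated start at 133544390. This NMDA-only region was among the weakest, with a signal of 20.6 and a percentile of 2.25, and replicate signals of 7.86 and 12.7. In its decile of the NMDA list 65.6% of regions were NMDA-only. The nearest control region lay 207499 bp away. The promoter window of Tet2 held 57 CpG, more than 99.8% of the windows in the table.

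Tet3, the other member of this enzyme family (chromosome 6, 83362373 to 83457208, minus strand), had its strong regions beyond the 3′ end, at Bola3, which encodes a mitochondrial iron-sulfur cluster protein. A pair at an end of Bola3 (83349394 and 83349385) was at percentiles 99.0 and 97.6, and one within Bola3 (83356686 and 83356672) at 87.5 and 96.3. The latter had a width of 1226 bp for control and 2313 bp for NMDA, the largest width ratio of the pairs at 1.89. It was above its control percentile in both replicate columns, by 8.63 and 8.47 points. At the 5′ end of the span a shared region (83456385 and 83456386) was at 46.4 and 48.8. The annotated start at 83441678, which lies inside the span, carried a control-only region (83441114 to 83442106) with its summit 85 bp after the start. This region was weak, with a signal of 39.7 and a percentile of 2.90. It also lay at an end of the long noncoding RNA gene B230319C09Rik, and the nearest NMDA region was 13631 bp away.

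Mbd1, a methyl-CpG binding protein (chromosome 18, 74267605 to 74282737), had 1 shared region, inside the span and close to its lower-coordinate end. The summits at 74268004 and 74268017 lay 399 and 412 bp from that end. The region was at percentile 74.9 in the control and 63.1 in the NMDA list, and was below the control percentile in both replicate columns, by −3.09 and −17.6 points. Its width was 1008 and 668 bp. Mbd2 (chromosome 18, 70568225 to 70629134) had 2 shared pairs and no list-only region. The pair inside the gene (70580867 and 70580871) was at 34.1 and 42.1, and the pair in the flank (70645155 and 70645145) at 49.8 and 59.1. Both were above their control percentile in both replicate columns.

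Mbd3, the NuRD subunit (chromosome 10, 80392539 to 80399531, minus strand), was the gene with the largest difference in region number, 7 in the control and 4 in the NMDA list. The 4 shared pairs lay outside the gene. The strongest, 16170 bp from the 3′ end (80376369 and 80376377), was also the widest region of all 9 windows, at 3982 and 3790 bp, with percentiles of 95.3 and 98.5. Pairs at 80377907 and 80377942 (79.0 and 76.3), at 80383657 and 80383647 within Mex3d, an RNA-binding protein gene (41.7 and 56.3), and at 80403508 and 80403514 at an end of Uqcr11, a respiratory complex III subunit gene (63.1 and 61.9), completed the shared set. The sole region within the Mbd3 span was control-only (80398175 to 80399582). Its summit lay 466 bp after the annotated start at 80399531, and the region reached over the start, covering 101 bp of the 300 bp promoter window. Its signal of 135 put it at percentile 42.8, which made it 64th among the 3117 control-only regions by signal. In its decile of the control list 1.77% of regions were control-only. The nearest NMDA region lay 3515 bp away. The other control-only regions were weak, one at the ends of Mex3d and the noncoding RNA gene Gm30823 (80387675 to 80388453, percentile 0.982) and one at an end of Uqcr11 (80405651 to 80406323, percentile 12.5). At an end of the gene, Mbd3 was the 1 member of 9 with a control-only region and Tet2 the 1 with an NMDA-only region, beside 3.53% and 4.28% of protein-coding genes.

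Apart from the region at the Mbd3 start, list-only regions around the 9 genes were weak within their lists. Of the 7 control-only regions 6 were below percentile 25, as were 4 of 4 NMDA-only regions. Their nearest region in the other list was 1205 to 21471 bp away for control-only and 2019 to 207499 bp for NMDA-only regions. List-only regions were mostly weak across the whole lists as well. Deciles 1, 2 and 3, the weakest, held 1606, 822 and 432 of all 3117 control-only regions. In the NMDA list the same deciles held 2373, 1607 and 942 of all 5616 NMDA-only regions. In the weakest decile of each list 47.5% of all control and 65.6% of all NMDA regions were list-only, and in the sixth decile 0.621% and 1.66%. The plot of list-only shares by signal sets the member regions against these shares.

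**Figure D2:**
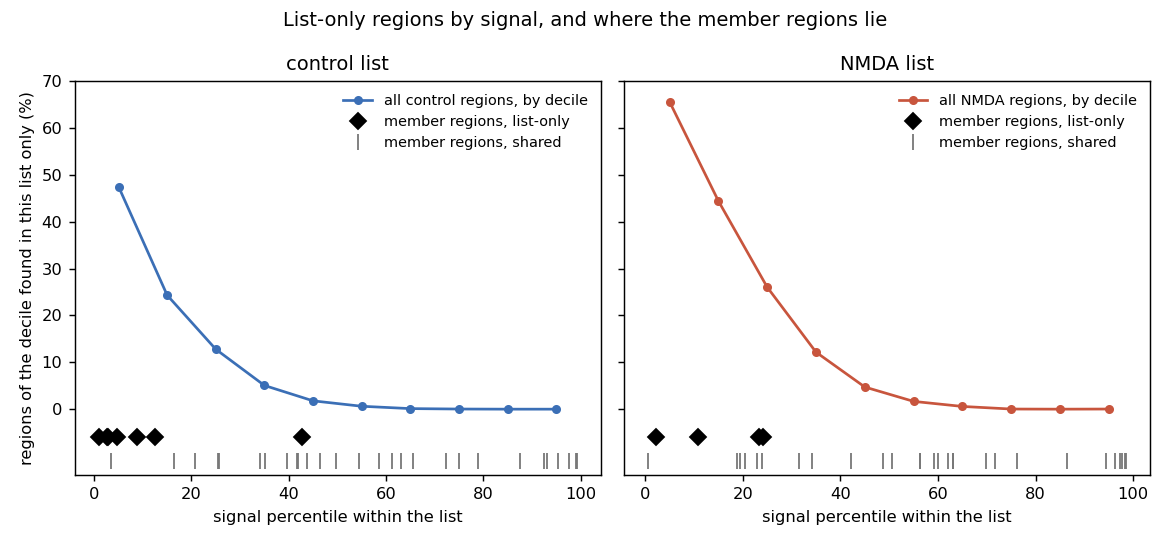
Share of all regions in each signal decile that were found in that list only (lines, in %), for the control list and the NMDA list; diamonds and ticks below 0 mark the percentiles of list-only and shared member regions and have no height. Of the list-only member regions, 1 of 7 control regions, at Mbd3, lies above percentile 25, and 0 of 4 NMDA regions.

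The 28 pairs kept close positions. The median distance between control and NMDA summits was 13.5 bp (range 1 to 59), beside 18 bp over all 31099 pairs of the lists. The difference in percentile, NMDA minus control, had a median of 2.25 points (quartiles −3.42 and 6.13), beside 2.44 (−3.36 and 9.43) over all pairs. It was positive in 15 pairs, or 53.6%, and negative in 13, beside 61.8% positive over all pairs. The median over the members was 2.75 points with the first replicate column and −1.001 with the second, so its sign depended on the replicate used. In 11 pairs both replicate columns lay above the control percentile, in 9 both lay below, and in 8 they lay on opposite sides. The same counts over all pairs are not given here, so these describe the members alone. The NMDA signal is the sum of the 2 columns, so the columns are not a separate check on the difference in percentile. Against pairs of the same control decile, 2 of the 28 were in the lowest 5%, those at the 3′ end of Tet1 and the start of Dnmt3b, and 0 were in the highest 5%. By construction about 5% of all pairs fall in each of these classes. The highest was the pair within Bola3 in the Tet3 window, with 94.4% of its decile below. Control-only regions have no difference and were not counted here. They made up 12.8% of the control decile of the Tet1 pair and 1.77% of that of the Dnmt3b pair. The control libraries have no replicate values here, so the spread of the control percentile is unknown.

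**Figure D3:**
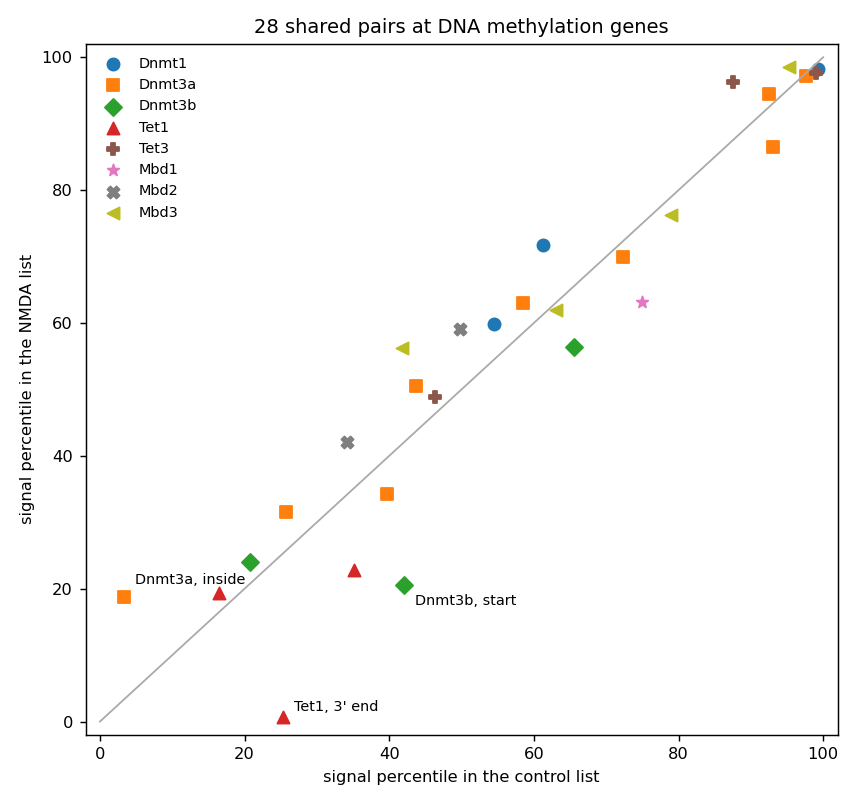
Signal percentile in the control list (x) and the NMDA list (y) for the 28 shared pairs, coloured by gene, with the line of equal percentile. The pairs at the Tet1 3′ end (25.4 and 0.649) and the Dnmt3b start (42.0 and 20.5) lie farthest below the line and a weak pair inside Dnmt3a (3.37 and 18.7) farthest above it.

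The replicate columns of the NMDA list differed by a median of 7.29 percentile points over the 32 member regions, beside 9.28 over all NMDA regions. The second column held the higher signal in 24 of 32, beside 79.4% of all NMDA regions. By percentile within each column it was the higher one in 12 of 32, beside 48.3% of all. The widest gaps were at the pair inside Dnmt3b, at 29.8 and 65.5, and at the weak pair inside Dnmt3a, at 37.8 and 5.56. The strongest member regions, those beside Eif3g, at the end of Bola3 and 16162 bp beyond the 3′ end of Mbd3, had 313, 235 and 345 in the first column and 324, 343 and 320 in the second. The plot of replicate columns shows member regions spread along the whole cloud of NMDA regions, with the NMDA-only ones in its lower part.

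**Figure D4:**
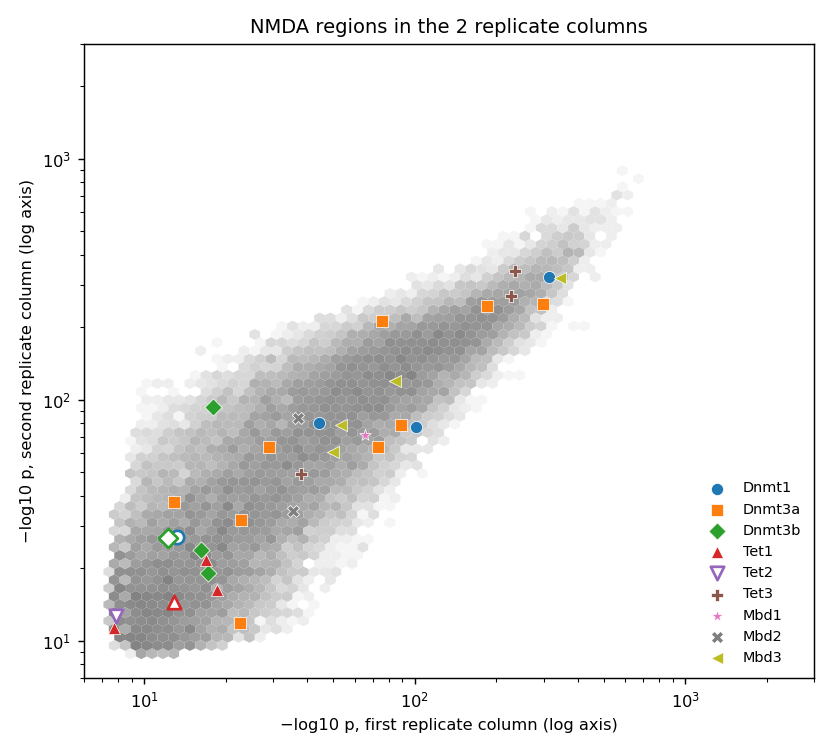
Signal (−log10 p, log axes) of NMDA regions in the first and the second replicate column; grey cells count all NMDA regions on a log scale, symbols are member regions by gene and open symbols are NMDA-only. The 4 NMDA-only regions lie at or below 13.2 in the first column and 27.0 in the second.

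Among genes with a promoter entry, a summit lay within 1 kb of an annotated start in 5 of 7 members in the control list (Dnmt1, Dnmt3a, Dnmt3b, Tet3 and Mbd3) and in 4 of 7 in the NMDA list (Dnmt1, Dnmt3a, Dnmt3b and Tet2). Over all 27025 genes of the promoter table these shares were 21.9% and 22.2%. Each of the 3 writers had such a shared region, and starts with a region in 1 list alone belonged to Tet2, Tet3 and Mbd3. For Tet3 this depends on the start used, since its only start in the promoter table lies inside the span. The shared Tet3 region at the 5′ end of the span, 823 and 822 bp from that end, is not counted here. The 11 promoter windows of 300 bp had 2 to 57 CpG, beside a median of 7 (quartiles 3 and 20) over 32851 windows. Those with the most were Tet2 at 57 and the outer Dnmt3a starts at 47 and 46, which overlap each other. The CTCF core consensus, CCANNAG followed directly by NNGGC, was searched on both strands. It was found in 0 of 11 member windows and in 2.43% of all windows. The shorter motif AGGGGGC, which can overlap the consensus, was found in 5 of 11 member windows and in 10.6% of all. These were the windows at Dnmt3b, Tet2, Tet3, the Dnmt1 start at 20952623 and the Dnmt3a start at 3891744. Their GC content was 69.7% to 81.3%, beside a median of 52.7% over all windows, and its part in the count was not tested. A match is a description of the letters only.

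Other genes of the pathway were taken from a list of 41, which holds 5 further writers and their helpers, 14 genes of demethylation and base excision repair, 11 further readers or CpG-binding proteins, and 11 NuRD subunits. Of these, 38 had a control and 39 an NMDA region in the window with 20 kb flanks, beside 73.8% and 74.6% of protein-coding genes. In that window 11 of 41 had a control-only and 14 an NMDA-only region, beside 16.3% and 26.7%. At an end of the gene 2 of 41 had a control-only and 2 an NMDA-only region, beside 3.53% and 4.28% of protein-coding genes. The 2 with a control-only region encode NuRD subunits, and both regions were in the weakest decile, where 47.5% of all control regions were control-only. The region at Chd3, a helicase subunit (chromosome 11, 69367238 to 69368917), had a signal of 44.0 and that at Hdac2, a deacetylase (chromosome 10, 36973981 to 36975448), had 40.7, at percentiles 5.61 and 3.49. An NMDA-only region lay at an end of Neil1, a DNA glycosylase gene (chromosome 9, 57147470 to 57148927, signal 25.04, percentile 8.01), and of Cxxc1, which binds unmethylated CpG (chromosome 18, 74215664 to 74216772, signal 87.9, percentile 49.0). The replicate columns at Cxxc1 gave 33.1 and 54.9. In the NMDA deciles of the Neil1 and Cxxc1 regions, 65.6% and 4.72% of all regions were NMDA-only. The Cxxc1 window also held 1 control region, which was control-only and not at an end of the gene. In the window, 5 of the 11 NuRD subunits had a control-only and 5 an NMDA-only region, and of the 11 further readers 5 and 4 did. Of the 14 demethylation genes 1 had a control-only and 4 an NMDA-only region, and of the 5 further writers 0 and 1 did. No difference between these groups was tested.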

How the data were processed

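The submitters' processing notes name MACS2, BWA, SAMtools, Trimmomatic and FastQC, and the builds GRCm38.p6 and mm10. Tool versions and settings: not given in the sources used here. The authors deposited 33820 control and 36193 NMDA regions, with a reproducibility score (540 to 1000) and a −log10 p-value per region. In the NMDA list the deposited −log10 p equalled the sum of 2 replicate columns within 0.001 in all 36186 regions kept. Which replicate each column holds is not stated. The 6 other per-replicate columns, which hold positions, were not used. Here, 5 control and 7 NMDA regions off the assembled chromosomes were left out. Summits are the start plus the summit offset. Overlap, ranks and Wilson intervals were computed in Python 3.11.15 (pandas 2.3.3, statsmodels 0.14.6), and the overlap and ranking steps were tested on simulated data. Genes and promoters came from RefSeq tables of GRCm38.p6, which give no exons. All 9 genes are named with every region, neighbours where a summit lay in or within 1 kb of them, and other pathway genes where a list-only region lay within 1 kb of an end. Members and lists were chosen with earlier results of these data known. Input libraries were not analysed here.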

Additional observations from a re-analysis of the deposited data

How the results depend on the processing

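The share of control regions that were shared was 80.0%. It was 96.3% at a score of 830 or more, and 77.1% to 85.7% under the other 7 settings. The share over all regions under each setting is not given here. The share of NMDA regions was 87.5%, and ran from 80.8% to 92.9% under 8 settings. The Mbd3 window was left out as a setting chosen after seeing the data. The number of NMDA regions was 32, and 52 with windows of 50 kb, which are longer by construction. The median percentile difference of pairs was 2.25 points, −1.001 with the second replicate column and 1.60 to 3.41 under the other 5 settings; the cause was not tested. A reciprocal overlap of 50%, summits within 100 bp and regions extended by 500 bp changed the class of 0 of 67 regions. Ranking by the seventh column gave no value, since it is constant. Leaving out a replicate could not be done, since each list joins both. No paired analysis was possible because each condition is 1 list and no result comes from a test.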

Other observations

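In 4 of the 11 promoter windows the letters AGGGGGC, on either strand, lay within the 30 bases before the annotated start, beside 1.34% of all 32851 windows. These were the windows at Dnmt3b, Tet2, Tet3 and the Dnmt3a start at 3891744. The distance was chosen after the positions were seen, so this is a description with no test. The GC content of these 4 windows was 76.0%, 81.3%, 71.3% and 74.0%, beside a median of 52.7% (quartiles 45.7 and 61.7) over all windows, and its part in the count was not tested. Only the Dnmt3b window lay in a region of both lists. The Dnmt3a window had none, the Tet3 window lay in a control-only region, and the Tet2 window overlapped an NMDA-only region by 45 bp.

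NMDA-only regions lay inside the gene spans, 4 of 4, while 4 of 7 control-only regions lay in the flanks. Of all regions in these windows, 17 of 32 NMDA and 16 of 35 control regions lay inside the spans. The share over all list-only regions of the lists is not given here, so the counts describe these windows alone. With counts this small the difference between the lists was not tested.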
